A study of Mus musculus with 20 samples.

Results

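The 8 genes described here belong to cholesterol homeostasis and were measured in mouse kidney RNA: 5 enzymes of the synthesis pathway (Hmgcs1, Idi1, Fdps, Sqle and Lss), the regulators Srebf2 and Insig1, and the transporter Abca1. They were taken by name from the array annotation, 8 of 27827 gene names and 18 of 41174 probes, and none of them is an uptake receptor. All animals were male C57BL/6 mice of 8 to 12 weeks. Control mice, by their labels, had no surgery and no drug. IRI mice had both renal pedicles clamped for 45 min and were killed after 6 h of reperfusion. IPC+IRI mice had in addition been preconditioned by 15 min of ischemia 7 days earlier. IRI+Hemin mice received 25 mg/kg of Hemin, an inducer of heme oxygenase 1, 24 h before the same ischemia, and Hemin mice received the drug without surgery. Each group had 4 arrays, 1 per labelled sample. The Control and Hemin groups had no sham operation and no vehicle is named for the drug, so anesthesia and incision cannot be told apart from ischemia. No label says that the samples came from separate animals, and p-values then measure the spread between samples.

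Cells make cholesterol from acetyl-CoA through the mevalonate pathway, and Hmgcs1 forms HMG-CoA, Idi1 isomerises isopentenyl diphosphate, Fdps makes farnesyl diphosphate, Sqle oxidises squalene and Lss closes the ring to lanosterol. Srebf2 encodes the sterol-sensing transcription factor SREBP-2, which raises the genes of the pathway when membranes are short of sterol. Insig1 retains the SREBP complex in the endoplasmic reticulum, and Abca1 moves cholesterol out of the cell to apolipoprotein A-I and is a target of the oxysterol receptors LXR. In the kidney, tubule cells carry much of the cholesterol and injury is known to change its content.

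The values rest on 60-base probes, and the pair that lie across an exon junction are shown because they carry part of the Fdps and Insig1 results. The Fdps probe, the brighter of that gene, spans chr3:88898812-88898952 (mm9, minus strand), and the Insig1 probe, the dimmer of that gene, spans chr5:28401146-28401618 (mm9, plus strand).
Fdps: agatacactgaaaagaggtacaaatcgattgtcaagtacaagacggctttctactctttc
Insig1: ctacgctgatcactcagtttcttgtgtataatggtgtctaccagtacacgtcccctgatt
The array annotation places the Hmgcs1 probes on an unplaced part of chromosome 13 and both Idi1 probes on chromosome 2 (chr2:53553575-53553634 for the brighter), under a transcript record that the RefSeq table used here does not list, while that table puts Idi1 on chromosome 13. Signal from a related copy of Idi1 could therefore not be told apart from that of Idi1 itself.

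Promoters are shown for Hmgcs1, Idi1, Insig1 and Abca1, which carry the largest called differences among the genes with a promoter, as the 250 bases before the RefSeq start (GRCm38.p6, 5′ to 3′ on the gene's strand). RefSeq promoters were found for 6 of the 8 genes, all but Sqle and Fdps. Capitals mark the letters TCACNCCAC, the core of a sterol regulatory element, and CCAAT, both searched on both strands. The windows are chr13:119690101-119690350 (plus), chr13:8885356-8885605 (plus), chr5:28071162-28071411 (plus) and chr4:53159896-53160145 (minus).
Hmgcs1: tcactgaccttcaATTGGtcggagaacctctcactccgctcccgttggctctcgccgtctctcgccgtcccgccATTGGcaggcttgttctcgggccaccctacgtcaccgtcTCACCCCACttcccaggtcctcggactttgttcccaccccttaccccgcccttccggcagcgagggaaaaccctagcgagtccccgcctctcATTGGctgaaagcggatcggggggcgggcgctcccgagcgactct
Idi1: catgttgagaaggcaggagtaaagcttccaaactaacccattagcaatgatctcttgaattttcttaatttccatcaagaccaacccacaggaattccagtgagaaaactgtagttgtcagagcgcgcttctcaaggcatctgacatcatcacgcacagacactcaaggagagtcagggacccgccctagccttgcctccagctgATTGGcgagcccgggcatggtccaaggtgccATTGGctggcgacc
Insig1: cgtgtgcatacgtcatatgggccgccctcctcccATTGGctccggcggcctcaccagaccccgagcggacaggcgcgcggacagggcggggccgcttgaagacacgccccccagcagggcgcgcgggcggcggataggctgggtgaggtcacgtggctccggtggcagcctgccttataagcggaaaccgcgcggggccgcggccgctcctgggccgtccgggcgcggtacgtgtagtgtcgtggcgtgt
Abca1: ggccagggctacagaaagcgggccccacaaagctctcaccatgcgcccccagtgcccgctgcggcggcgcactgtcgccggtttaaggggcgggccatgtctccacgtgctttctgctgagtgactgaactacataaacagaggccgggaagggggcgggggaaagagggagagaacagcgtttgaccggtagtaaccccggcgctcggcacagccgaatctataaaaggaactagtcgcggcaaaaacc
TCACNCCAC was found once among the 6 promoters, in Hmgcs1 at 137 to 129 bases before the start, and in 1.05% of 32851 promoter windows of the same length. CCAAT, all matches on the opposite strand as ATTGG, was present 3 times in Hmgcs1, 2 times in Idi1, once each in Lss, Insig1 and Srebf2 and not in Abca1, against 33.8% of all windows, and no match overlapped one of the other motif. A direct repeat of AGGTCA spaced by 4 bases, searched in exactly these letters on both strands, was absent from all 6 windows. It was present in 0.0152% of all windows, so its absence from 6 was nearly certain beforehand. Repeats that differ from these letters were not searched, and nothing is concluded on such elements in Abca1 or the other genes.

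Signals are given as log2 expression, the log2 of the processed signal over the array's 75th percentile, so that 0 lies at this percentile and a log2 difference of 1 is a 2-fold change. The 8 genes were well above background, a flag of the scanner software, on all 20 arrays, and no member spot was saturated or flagged. The 75th percentile ranged from 146.7 to 357.9 intensity units and the share of genes well above background from 57.4% to 67.4%. All 9 kidney tubule markers were well above background on all 20 arrays, with a summed log2 level of 9.03 to 9.64 that the brightest of them dominate, and single markers called are given beside the comparisons. Leukocyte and macrophage markers (9 genes) summed to a log2 level of 2.05 to 2.59 in Control and 2.29 to 2.82 in Hemin, and after ischemia to 3.38 to 4.10 in IRI, 3.72 to 5.45 with IPC before it and 3.33 to 4.45 with Hemin before it. Fat markers (Adipoq, Fabp4, Cidec and Plin) differed between arrays of 1 group: their summed log2 level was 5.87 in Control replicate 2 and 1.97 to 2.07 in the other 3 Control arrays, and 5.79 in IRI replicate 1. The part of fat or leukocyte RNA in the results was not tested beyond the refits given beside them, and fewer cells of a type and less RNA per cell cannot be told apart in whole tissue. Each group had a slide of its own, so that a slide cannot be told apart from its group, and of the 6 comparisons only IRI vs Control has both groups scanned on the same day. Hmox1, which encodes heme oxygenase 1, was at 1.37 ± 0.53 in Control and 1.93 ± 0.21 in Hemin (SD, n = 4), a log2 difference of 0.56 that was not called (adjusted p = 0.363).

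**Figure D1:**
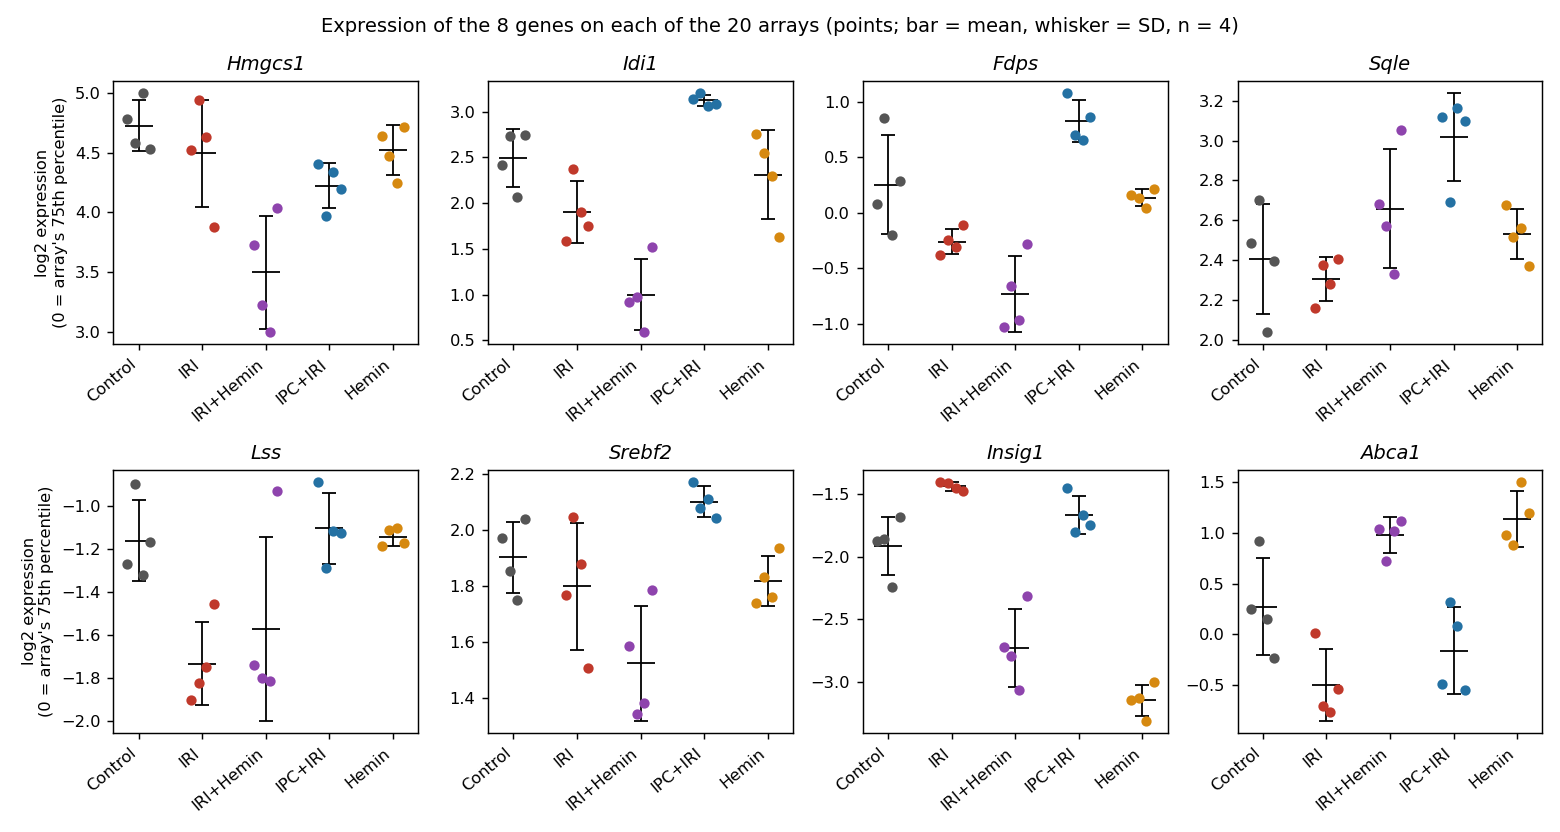
Log2 expression (vertical axis, 0 at the array's 75th percentile) of the 8 genes on every array, with the mean and SD of the 4 arrays of a group. Insig1 was lower and Abca1 higher in both Hemin groups, and Idi1 and Fdps were highest in IPC+IRI and lowest in IRI+Hemin.

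The first question was what ischemia and reperfusion alone did to these genes. In IRI, 4 of the 8 were called lower than in Control (3 enzymes and Abca1) and 1, Insig1, higher, where called means an adjusted p below 0.05 in limma with the adjustment made across every gene tested. Of the 17711 genes tested, 33.7% were called lower and 17% higher, and the median log2 difference was -0.37 over the 8 genes and -0.17 over all genes. Lss gave -1.27, -0.89, -1.32 and -1.16 on the Control arrays and -1.91, -1.82, -1.75 and -1.46 on the IRI arrays. All 4 IRI arrays were thus below all Control arrays, as in 31.3% of the genes tested, with a log2 difference of -0.57 (SE 0.17, adjusted p = 0.00893). Idi1 (log2 difference -0.59, adjusted p = 0.0444) and Fdps (-0.52, adjusted p = 0.0292) were lower with overlapping groups, and Hmgcs1 (-0.23) and Sqle (-0.10) were not called. Of the 9 tubule markers Lrp2 was lower (-0.95) and Aqp2 higher (1.23) in this comparison. Among 8 leukocyte and macrophage markers tested 4 were higher, and 2 of 4 podocyte markers were lower. Of 5 endothelial markers 1 was higher and 2 lower. Liver (4 tested) and adrenal markers (2 tested) each had 1 higher and 1 lower. The part of these cells was not tested.

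Insig1 was the member that rose with ischemia. Its log2 expression was -1.87, -1.86, -2.24 and -1.68 in Control and -1.40, -1.41, -1.45 and -1.48 in IRI, without overlap (all IRI arrays higher in 14.8% of genes) and with a log2 difference of 0.48 (SE 0.14, adjusted p = 0.0098). Groups of 4 that do not overlap give p = 0.029 in the exact two-sided permutation test, the smallest it can give. For Abca1, the Control arrays read 0.25, 0.92, 0.16 and -0.23 and the IRI arrays 0.01, -0.71, -0.76 and -0.53, so that IRI replicate 1 lay within the Control range (log2 difference -0.77, adjusted p = 0.0129). Control replicate 2, the array with the high fat markers, had the highest Fdps (0.85) and Abca1 of its group. Without it 1 of the 8 genes, Lss, was called lower, 2 were without Control replicate 4, IRI replicate 1 or IRI replicate 3, and with the highest-Adipoq array of each group left aside Abca1 alone was called lower and none higher. With the fat marker level as a covariate 3 were lower and 1 higher. Under normexp background correction no member was called in this comparison (adjusted p from 0.1 to 0.65 for these 5 genes), and without normalization none was lower.

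The next comparison was of preconditioned with other ischemic kidneys, and it uses the same 4 IRI arrays as the comparison of IRI with Control, so that the signs of the 2 comparisons are not independent. Against IRI, 5 members were higher in IPC+IRI (4 enzymes and Srebf2) and none was lower, where 26% of 17663 genes were higher and 17.7% lower, and the median log2 difference was 0.48 over the members and 0.093 over all genes. Unadjusted p-values below 0.05 gave no lower member either. Idi1 read 1.59, 2.37, 1.91 and 1.75 on the IRI arrays and 3.14, 3.21, 3.07 and 3.08 on the IPC+IRI arrays. The 2.33-fold rise (log2 difference 1.22, SE 0.24, adjusted p = 0.00056) separated all arrays of the groups. Fdps read -0.38, -0.25, -0.31 and -0.11 in IRI and 1.08, 0.70, 0.66 and 0.86 in IPC+IRI, a 2.13-fold rise (log2 difference 1.09, adjusted p = 0.000236). Its dimmer probe differed by -0.44, opposite to the gene value. Over 21 alternatives the Fdps difference went down to 0.358 and its adjusted p up to 0.0981, and the call was lost in 1. Both genes act next to each other in the isoprenoid part of the pathway, and they were the 2 members at least 2-fold higher, against 7.16% of genes.

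Downstream of farnesyl diphosphate, Sqle was 2.16 to 2.41 in IRI and 2.69 to 3.17 in IPC+IRI, a 1.64-fold rise (log2 difference 0.71, adjusted p = 0.00157). Lss rose 1.55-fold (log2 difference 0.63, adjusted p = 0.00607), again without overlap. Over 21 alternatives its log2 difference went down to 0.125 and its adjusted p up to 0.529, and the call was lost in 1. For non-overlapping groups the background was 22.2% of genes with all IPC+IRI arrays higher. Srebf2 was higher by 0.30 on the log2 scale at an adjusted p of 0.0488, with overlapping groups, and this call was lost in 15 of 21 alternatives. Hmgcs1, the enzyme at the head of the pathway, did not follow: it was 4.49 ± 0.45 in IRI and 4.22 ± 0.19 in IPC+IRI (SD, n = 4; log2 difference -0.27, adjusted p = 0.345). Insig1 (-0.23) and Abca1 (0.34) were not called. Red cell markers were lower in IPC+IRI, 3 of 3 (summed log2 level 3.40 to 5.76, against 6.25 to 6.60 in IRI), as were 3 of 5 endothelial, 2 of 9 tubule and 2 of 4 liver markers. Of 9 leukocyte and macrophage markers 3 were at least 2-fold higher, Lyz2 by 2.18 on the log2 scale, and 1 was lower. Itgam, which is among the 3, exceeded background clearly on 2 arrays of IRI and on 4 of IPC+IRI. The part of these cells in the differences was not tested.

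Against Control, 3 members were higher in IPC+IRI and none lower, with 23.1% of 18342 genes higher and 32.6% lower. Sqle (log2 difference 0.61, adjusted p = 0.00314), Idi1 (0.63, adjusted p = 0.0299) and Fdps (0.57, adjusted p = 0.0156) were above Control, Idi1 without overlap (17.7% of genes). Hmgcs1 was below Control on every IPC+IRI array, 3.97 to 4.40 against 4.54 to 5, as in 27.4% of genes, yet not called (log2 difference -0.50, adjusted p = 0.0673). Its unadjusted p was 0.0394, and it was called lower in 4 of the alternatives tried. The Idi1 call was lost in 9 of 21 alternatives, and the dimmer Fdps probe differed by -0.65, opposite to the gene value. The count of higher members fell to 1, Sqle, without Control replicate 3. Of the 9 tubule markers 2 were lower (Slc34a1 by -0.74 and Lrp2 by -0.71) and 2 higher (Slc12a3 and Aqp2). Among 9 leukocyte and macrophage markers 6 were higher. Lower were 2 of 4 podocyte, 1 of 5 endothelial and 1 of 4 liver markers, and of 2 adrenal markers tested 1 was higher and 1 lower. The part of these cells was not tested. Both IPC+IRI comparisons use the same 4 preconditioned arrays.

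**Figure D2:**
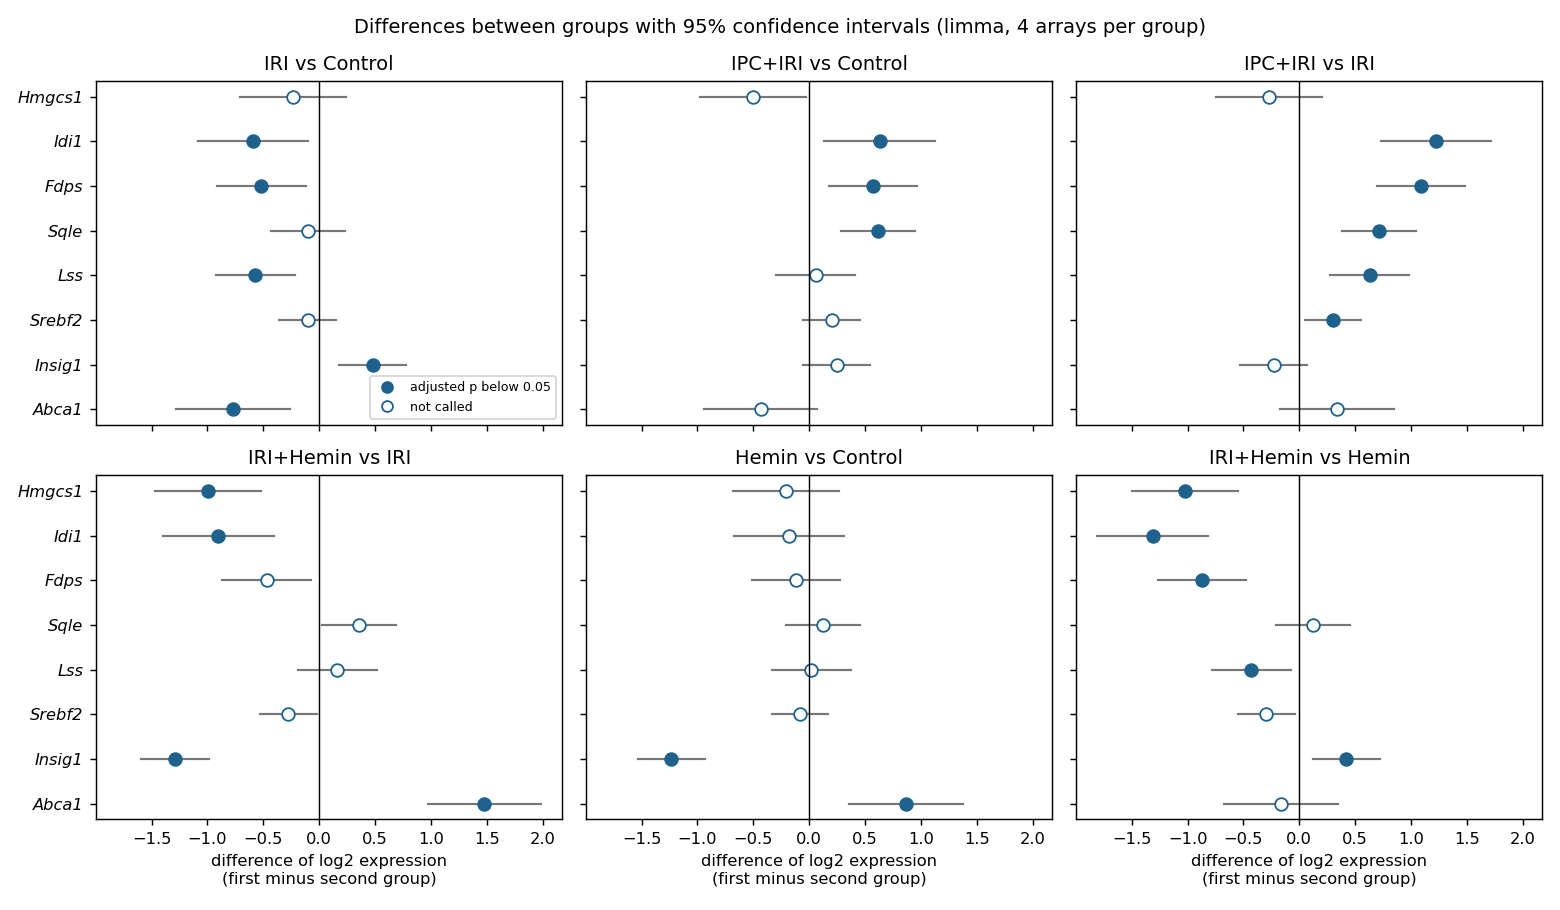
Difference of log2 expression (horizontal axis, first minus second group) with its 95% confidence interval for the 8 genes in 6 comparisons, filled where the adjusted p was below 0.05. Idi1, Fdps, Sqle and Lss lay above 0 in IPC+IRI vs IRI, and Insig1 and Abca1 lay on opposite sides of 0 in both comparisons of Hemin with its untreated counterpart.

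In Hemin vs Control, 2 of the 8 members were called, and none of these was an enzyme. Insig1 was lower and Abca1 higher than in Control, and the other 6 were not called. Among the 18572 genes tested, 17.5% were lower and 18.4% higher, and the median log2 difference was -0.10 over the members and 0.057 over all genes. Insig1 read -3.14, -3.13, -3.31 and -3.00 in Hemin, all below the lowest Control array at -2.24. The fall was 2.35-fold (log2 difference -1.23, SE 0.14, adjusted p = 3.79e-05), and it was at least 2-fold, as for 5.98% of genes. All Hemin arrays lay below all Control arrays in 18.1% of the genes tested.

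Abca1 read 0.98, 0.88, 1.51 and 1.2 in Hemin, against a Control range of -0.23 to 0.92. Only Control replicate 2 reached into the Hemin range, and the rise was 1.82-fold (log2 difference 0.87, SE 0.24, adjusted p = 0.0102). Leukocyte and macrophage markers summed to 2.29 to 2.82 in Hemin and 2.05 to 2.59 in Control, and 0 of 9 were called. Lower were 1 of 9 tubule markers (Slc34a1, -0.54), 1 of 4 liver markers (Cyp2e1, -0.77) and 1 of 2 adrenal markers tested (Hsd3b1, -0.79), and their part was not tested. The 6 uncalled members differed from Control by -0.21 (Hmgcs1) to 0.13 (Sqle) on the log2 scale. The intervals of the 5 enzymes reached as far as -0.68 on this scale, so a fall of that size lies within what 4 arrays a group leave possible.

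With ischemia after Hemin, the same pair of genes differed from IRI in the same directions. Insig1 read -2.73, -2.80, -3.07 and -2.32 in IRI+Hemin, a 2.45-fold fall from IRI (log2 difference -1.29, SE 0.14, adjusted p = 5.27e-06) without overlap. Abca1 read 1.04, 0.73, 1.03 and 1.12, a 2.78-fold rise from IRI (log2 difference 1.48, SE 0.24, adjusted p = 0.000143), again without overlap. All IRI+Hemin arrays were below IRI in 15.5% and above it in 23.4% of genes, and a change of at least 2-fold was called in 5.02% downwards (Insig1 among the members) and 7.44% upwards (Abca1). In addition 2 enzymes were lower, which made 3 members lower and 1 higher against 18% and 26.1% of 17831 genes. The median log2 difference was -0.37 over the members and 0.082 over all genes.

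Idi1 was at 0.92, 0.98, 0.59 and 1.52 on the IRI+Hemin arrays, all below the lowest IRI array at 1.59. Its fall was 1.87-fold (log2 difference -0.90, adjusted p = 0.00508). Hmgcs1 was at 3.73, 3.23, 3.00 and 4.04 in IRI+Hemin and 4.53, 4.94, 4.64 and 3.87 in IRI. IRI replicate 4 lay within the IRI+Hemin range, and the fall was 1.99-fold (log2 difference -1.0, adjusted p = 0.00184). Fdps (log2 difference -0.47, adjusted p = 0.0508) and Srebf2 (-0.28, adjusted p = 0.0703) were not called, nor were Sqle (0.35, adjusted p = 0.0767) and Lss (0.16, adjusted p = 0.457). IRI+Hemin replicate 4 had the highest value of its group for all 8 genes, and the lowest 75th percentile (173.8 intensity units), and without it 5 members were lower, Fdps and Srebf2 in addition. Without IRI+Hemin replicate 3, 2 members were higher, Sqle in addition to Abca1. Among the tubule markers Slc34a1 was lower (-0.91) and Lrp2 higher (0.34). Of 5 endothelial markers 2 were higher and 1 lower, while 1 of 4 podocyte markers was higher and 1 of 4 liver markers lower. No leukocyte and macrophage marker was called, and the part of these cells was not tested.

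Ischemia in Hemin-treated mice was read from IRI+Hemin against Hemin, which were scanned on different days. Idi1 (2.48-fold lower, log2 difference -1.31, adjusted p = 0.000284), Hmgcs1 (2.03-fold lower, -1.02, adjusted p = 0.00153), Fdps (-0.87, adjusted p = 0.00133) and Lss (-0.43, adjusted p = 0.0468) were lower and Insig1 was higher (0.42, adjusted p = 0.0237). These were 4 lower and 1 higher members, against 27.8% and 16.4% of 18628 genes. The first 3 separated all arrays of the groups (27.6% of genes), and the first pair fell at least 2-fold (8.49% of genes). The Lss call was lost in 15 and the Insig1 call in 8 of 21 alternatives, and without IRI+Hemin replicate 4 or Hemin replicate 3 no member was called higher. Abca1 differed by -0.16 and Sqle by 0.13 on the log2 scale, neither called. Here 3 of 9 tubule markers were lower as well (Lrp2 by -0.68, Slc5a2 by -0.65 and Slc34a1 by -0.41) and Umod was higher (0.40). Of 9 leukocyte and macrophage markers 4 were higher. Among 4 liver markers 1 was higher and 2 lower, and 1 of 2 adrenal markers tested was higher. The part of these cells was not tested.

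Whether ischemia acted differently with and without Hemin was tested by the interaction in the same fit of 20 arrays. None of the 8 members was called at an adjusted p below 0.05 with limma, against 7.77% of 19058 genes, and 2 had an unadjusted p below 0.05. The Hmgcs1 interaction was -0.79 (95% interval -1.46 to -0.12, adjusted p = 0.145) and that of Idi1 -0.72 (-1.42 to -0.02, adjusted p = 0.21) on the log2 scale. Without IRI replicate 4, 1 member was called, Hmgcs1 (-1.0, adjusted p = 0.0423). The Insig1 interaction was -0.06 (-0.48 to 0.37), so that its fall with Hemin was -1.23 without and -1.29 with ischemia. For Abca1 it was 0.61 (-0.11 to 1.33, adjusted p = 0.31).

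The order of the groups differed by gene. For Idi1 it was IPC+IRI, Control, Hemin, IRI and IRI+Hemin, and the first and last steps, of 0.63 and 0.90 on the log2 scale, separated all arrays of the neighbours. Fdps had the same order, with a gap between Hemin and IRI of 0.40 as the only one without overlap. The gene value of Srebf2 had this order too, over a span of 2.10 ± 0.05 to 1.52 ± 0.20 (SD, n = 4), with only IPC+IRI apart from its neighbour. Its probes differed in sign between IRI and Control, as given below, so the order of these groups is not read for Srebf2. In Insig1 the order was IRI, IPC+IRI, Control, IRI+Hemin and Hemin, and the step of 0.81 from Control to IRI+Hemin was the only one free of overlap. For Abca1 it was Hemin, IRI+Hemin, Control, IPC+IRI and IRI, and every step overlapped, as did all steps of Hmgcs1, Sqle and Lss.

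On scan day, 1 further pair of groups can be set side by side, as IPC+IRI and Hemin were scanned together. All Hemin arrays of Insig1 (-3.31 to -3.00) were below all IPC+IRI arrays (-1.80 to -1.45), and all Hemin arrays of Abca1 (0.88 to 1.51) were above them (-0.55 to 0.32). Among the enzymes, Idi1 was 1.63 to 2.76 in Hemin and 3.07 to 3.21 in IPC+IRI. No test was made between these groups.

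Probes of 1 gene did not always move alike, and the gene value, a mean of linear signals, gives the brightest probe the most weight. It lies close to that probe where the others are much dimmer, as in Idi1 and Fdps, and less so in Lss, whose 3 probes lie within 1.71-fold: its brightest probe differed by 0.28 in IPC+IRI vs Control, where the gene differed by 0.06. The 2 Insig1 probes fell with Hemin by -1.32 and -1.01, and with Hemin before ischemia by -1.41 and -0.88, on the log2 scale. Its rise in IRI vs Control was seen by the brighter probe (0.62) and not by the dimmer one printed above (0.04). The 2 Idi1 probes moved alike in IRI vs Control (-0.59 each) and in IRI+Hemin vs IRI (-0.89 and -1.06), and by 1.24 and 0.65 in IPC+IRI vs IRI. They parted in IPC+IRI vs Control, where the brighter differed by 0.65 and the dimmer by 0.07, and in Hemin vs Control (-0.17 and -0.59). Abca1 and Sqle had 1 probe each.

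The Fdps rise in IPC+IRI vs IRI was carried by the junction probe printed above (1.16), while the dimmer probe, 17.4-fold weaker on average, differed by -0.44. In Lss the 3 probes differed from IRI by 0.13 to 0.96 in IPC+IRI. Srebf2 had 4 probes, of which 3 were well above background on all arrays. In IRI vs Control the brightest differed by -0.32 and the other pair by 0.50 and 0.70. The probe with 0.50 read 0.89 to 1.08 in Control and 1.28 to 1.68 in IRI, while the brightest overlapped, so no direction is given for Srebf2 in that comparison.

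The 3 probes of Hmgcs1 also disagreed. Its brightest probe, which sets the gene value, was 6.26 ± 0.21 in Control, 6.09 ± 0.21 in Hemin, 6.04 ± 0.46 in IRI, 5.80 ± 0.19 in IPC+IRI and 5.06 ± 0.48 in IRI+Hemin. The second probe was 0.845 ± 0.83, -1.09 ± 0.44, 0.58 ± 0.08, -1.51 ± 0.15 and -2.21 ± 0.25 in the same order (SD, n = 4). It was thus high on the 8 arrays of the first scan day (-0.33 to 1.57) and low on the other 12 (-2.42 to -0.46), and the part of the scan day in this was not tested. The third and dimmest probe, well above background on 19 arrays, was -1.03 ± 0.57 in Control, -1.26 ± 0.31 in Hemin, -2.24 ± 0.40 in IRI, -2.39 ± 0.10 in IPC+IRI and -3.04 ± 2.1 in IRI+Hemin, where replicate 1 was at -6.24 and the others between -2.06 and -1.83. It differed by -1.21 in IRI vs Control, where the other pair differed by -0.22 and -0.26. A mean of log2 values over probes gives the dimmer probes more weight, and Hmgcs1 was then called lower also in IPC+IRI vs IRI (log2 difference -0.83, adjusted p = 0.0218) and in Hemin vs Control (-0.78, adjusted p = 0.0358). In both of these comparisons the main value was not called.

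**Figure D3:**
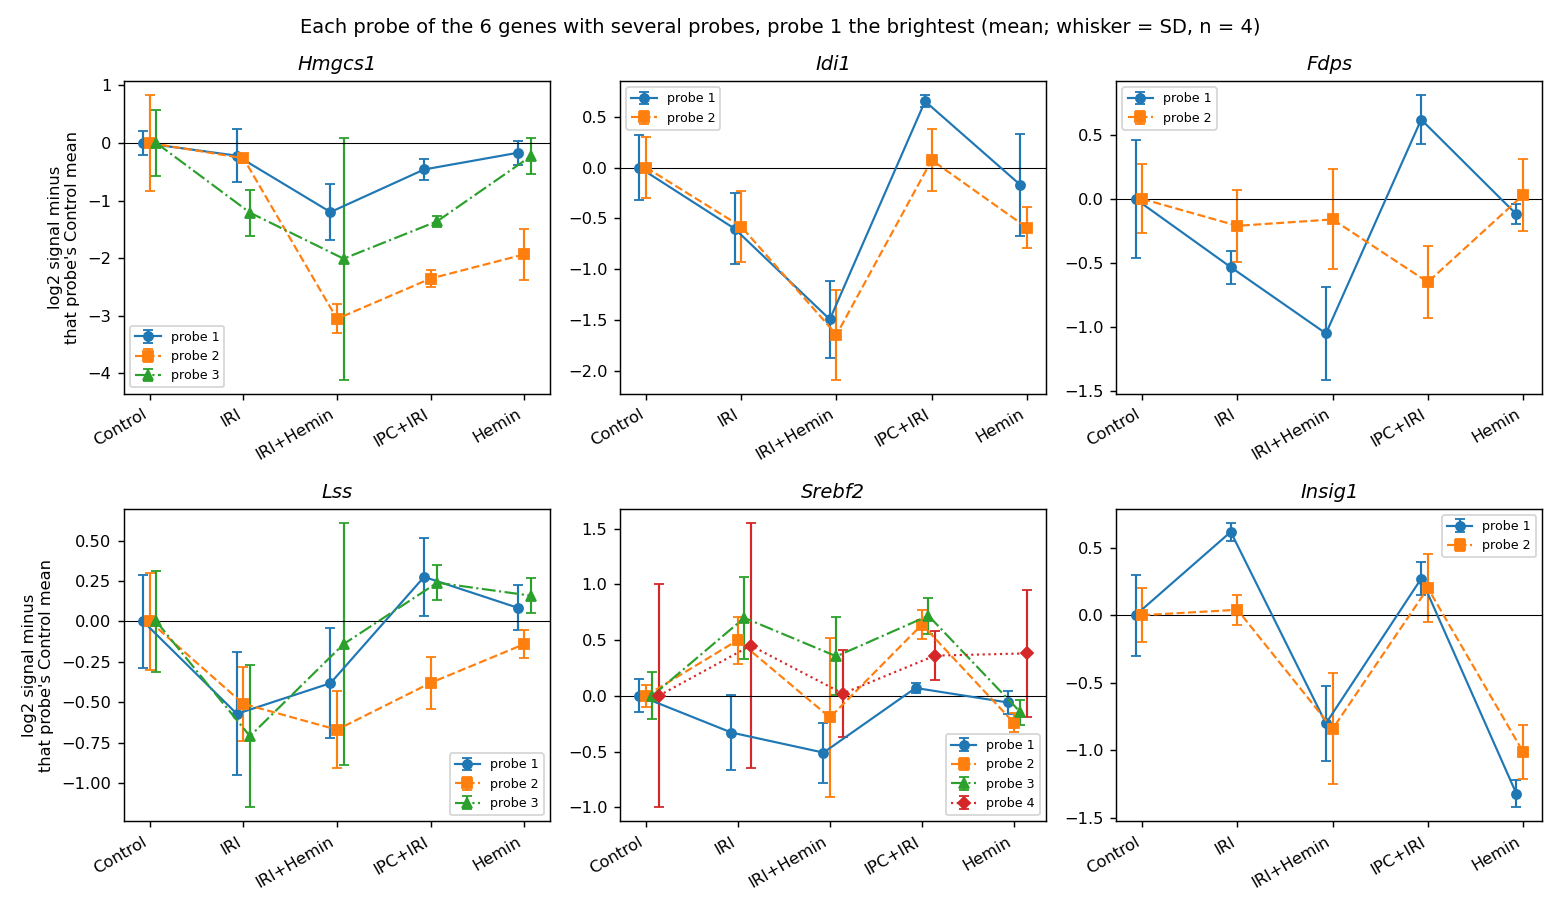
Log2 signal of each probe minus its own Control mean (vertical axis) over the 5 groups, mean and SD of 4 arrays, for the 6 genes with several probes. The probes of Idi1 lie together in IRI and part in IPC+IRI and in Hemin, those of Fdps part in IPC+IRI, and probe 2 of Hmgcs1 drops in the 3 groups scanned on later days.

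The rest of the synthesis pathway was read from a list of 17 further enzymes, all tested in every comparison. In IPC+IRI vs IRI, 4 were higher and 1 lower, where 26% and 17.7% of all genes were, so the share of higher enzymes was near that of all genes. In IPC+IRI vs Control 6 were higher and 4 lower, against 23.1% and 32.6% of all genes. Msmo1, which takes methyl groups off lanosterol-derived sterols (named Sc4mol on the array), rose by 1.14 from IRI (adjusted p = 0.000387) and by 1.55 from Control (adjusted p = 1.1e-05) on the log2 scale. Hsd17b7, which acts in the same steps, rose by 1.02 from Control (adjusted p = 1.23e-05). The median log2 difference of the list was 0.12 in IPC+IRI vs IRI and -0.06 in IPC+IRI vs Control, against 0.093 and -0.086 over all genes.

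With Hemin before ischemia, 6 of the 17 were lower than in IRI and 1 higher, against 18% and 26.1% of all genes, with a median log2 difference of -0.36 against 0.082 over all genes. Nsdhl, a sterol dehydrogenase, fell most, from 0.63 ± 0.14 to -0.47 ± 0.16 (SD, n = 4; log2 difference -1.10, adjusted p = 4.49e-06). Against Hemin, 6 were lower and 3 higher in IRI+Hemin, near the 27.8% and 16.4% of all genes. Dhcr7, the last enzyme of one branch, fell from 1.06 ± 0.04 to -0.22 ± 0.33 (log2 difference -1.28, adjusted p = 3.01e-05). In Hemin vs Control 2 of the 17 were lower and none higher, against 17.5% and 18.4% of all genes, and in IRI vs Control 4 were higher and 1 lower, against 17% and 33.7%.

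**Figure D4:**
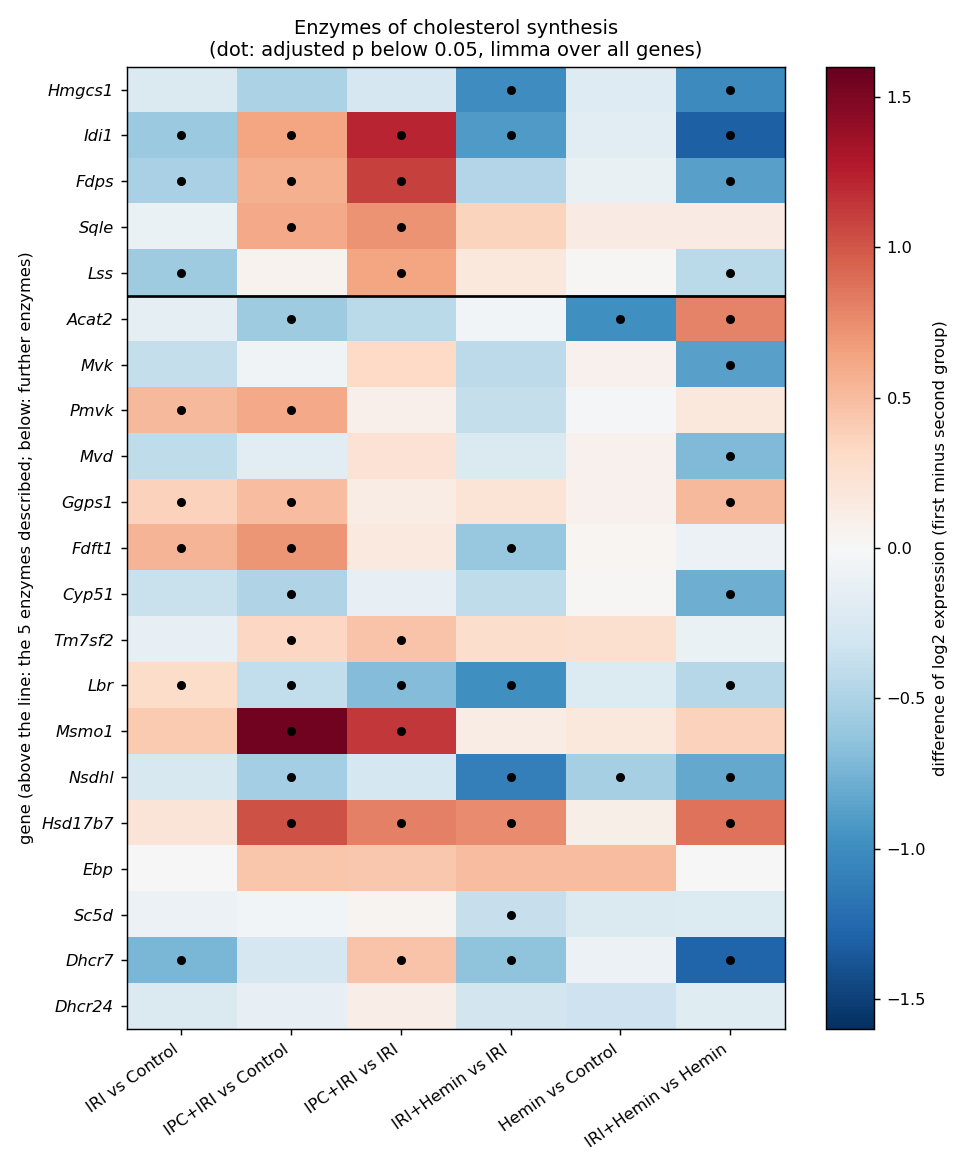
Difference of log2 expression (colour, red higher and blue lower in the first group) of the 5 enzymes above the line and further enzymes of cholesterol synthesis below it, with a dot where the adjusted p was below 0.05. In IRI+Hemin vs IRI, 2 of the 5 were lower, as was Nsdhl below the line, and Hsd17b7 was the single enzyme that was higher.

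Over the 5 pathway lists, the interaction was called in 5 of 53 genes tested, close to the 7.77% of all genes, and the 5 are named here after their values were seen. The lists of regulators, of efflux and esterification and of fatty acid synthesis held none of them among 24 genes tested, and 4 were synthesis enzymes. Acat2 (0.94, adjusted p = 0.0246) and Hsd17b7 (0.67, adjusted p = 0.046) had a positive one, and Lbr (-0.76, adjusted p = 0.01) and Nsdhl (-0.56, adjusted p = 0.0485) a negative one on the log2 scale. The remaining gene, of uptake and transport, was Mylip (1.24, adjusted p = 0.0195), a ubiquitin ligase induced by the LXR receptors. Mylip was at 1.32 in Control, 0.07 in IRI, 0.86 in Hemin and 0.85 in IRI+Hemin.

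Partners of Insig1 and Srebf2 were read from 8 regulators. All were tested in Hemin vs Control, where 4 were higher and none lower, against 18.4% and 17.5% of all genes. Of the 4, Mbtps2 was well above background on 4 Hemin arrays and on 1 Control array, so that it was tested through the group in which it was high, and the count says nothing about the list. Among 7 tested in IPC+IRI vs IRI, 2 were higher and 1 lower, near the 26% and 17.7% of all genes. Mbtps1, a protease that cuts SREBP, was 1.45 ± 0.08 in IRI and 2.48 ± 0.15 in IPC+IRI (SD, n = 4; log2 difference 1.03, adjusted p = 2.43e-05). Its level was 1.74 ± 0.24 in Control, 2.73 ± 0.05 in Hemin and 2.15 ± 0.27 in IRI+Hemin, and it was called higher also in Hemin vs Control (0.99, adjusted p = 9.71e-05), in IRI+Hemin vs IRI (0.69, adjusted p = 0.00057) and in IPC+IRI vs Control (0.74, adjusted p = 0.000183). It was called lower in IRI+Hemin vs Hemin (-0.58, adjusted p = 0.00207), without overlap. Insig2, the paralog of Insig1, had log2 levels of 0.91 ± 0.18 in Control and 1.46 ± 0.06 in Hemin, and of 0.59 ± 0.06 in IRI, 1.36 ± 0.20 with Hemin before IRI and 1.21 ± 0.16 with IPC before it. It was higher by 0.55 in Hemin vs Control (adjusted p = 0.00147), by 0.77 in IRI+Hemin vs IRI (adjusted p = 5.89e-05) and by 0.62 in IPC+IRI vs IRI (adjusted p = 0.00039) on the log2 scale, the first and second of which were the comparisons in which Insig1 fell. Insig2 was named after its values were seen.

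Uptake was read from 13 other genes, of which 12 were tested. Stard4, a carrier of cholesterol inside the cell, was highest in the preconditioned kidneys: it was 0.76 ± 0.25 in IPC+IRI, -1.34 ± 0.31 in IRI and -0.71 ± 0.56 in Control, and 0.32 ± 0.33 in Hemin and -0.05 ± 0.30 with IRI added (SD, n = 4). Its rise in IPC+IRI vs IRI was 4.29-fold (log2 difference 2.10, adjusted p = 1.15e-05). Stard4 was also called higher in IPC+IRI vs Control (1.47, adjusted p = 8.55e-05), in Hemin vs Control (1.03, adjusted p = 0.00407) and in IRI+Hemin vs IRI (1.29, adjusted p = 0.000508). In IRI vs Control it was called lower (-0.63, adjusted p = 0.0406). Npc1, which exports cholesterol from lysosomes, rose by 1.30 on the log2 scale in IRI vs Control (adjusted p = 2.76e-05), where Mylip fell by 1.25. Of the 12, 3 were higher and 2 lower in IRI vs Control, against 17% and 33.7% of all genes, and 2 were higher and 2 lower in IPC+IRI vs IRI, against 26% and 17.7%.

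Abca1 belongs with 9 listed genes of efflux and esterification, of which 6 or 7 were tested. Ch25h, which makes 25-hydroxycholesterol, was -2.76 ± 0.62 in Control and 2.54 ± 0.27 in IRI (SD, n = 4), a 39.4-fold rise (log2 difference 5.30, adjusted p = 3.82e-09), and 1.46 ± 0.82 in IPC+IRI. It was called higher also in IRI+Hemin vs Hemin (4.30, adjusted p = 6.22e-08) and lower in IPC+IRI vs IRI (-1.07, adjusted p = 0.0149). Abca1 was at its lowest in IRI, where Ch25h was at its highest, but the other groups did not follow this pairing. In IRI+Hemin Ch25h was 2.11 ± 0.27, not called against IRI (-0.43, adjusted p = 0.315), while Abca1 was 0.98 ± 0.17. In Hemin vs Control, 1 of 7 was higher and 1 lower, where 18.4% and 17.5% of all genes were. The higher one, Apoa1, was well above background on 4 Hemin arrays and on 0 Control arrays, and was thus tested through the group in which it was high. Among 9 genes of fatty acid synthesis, Scd2, a desaturase, rose by 1.49 on the log2 scale in IPC+IRI vs IRI (adjusted p = 0.0012), where 2 were higher and 2 lower, against 26% and 17.7% of all genes.

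Across the 20 arrays, the centred mean of the 5 enzymes was highest in IPC+IRI (0.31 to 0.62) and lowest in IRI+Hemin (-0.92 to -0.07), with no overlap between these groups. The 5 enzymes are part of this mean, which by itself brings them nearer to it, and their mean absolute differences from it on the log2 scale were 0.19 for Fdps, 0.20 for Lss, 0.28 for Sqle, 0.34 for Idi1 and 0.35 for Hmgcs1. Of the members outside the mean, Srebf2 was at 0.20, Insig1 at 0.46 and Abca1 at 0.77. Among 14432 genes outside the lists, those nearest to it were 2310003L22Rik (0.15), Cdk2ap2 (0.16), TC1717038 (0.16), Cyb5b (0.17) and Dbt (0.18). Nearest to Abca1 were Spata1 (0.28), NAP115274-1 (0.30) and Fam131a (0.30). These distances describe the same 20 arrays and carry no test.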

How the data were processed

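RNA of whole kidney from 20 mouse samples was hybridised to 1-colour Agilent arrays, 4 arrays in each of 5 groups. The intensity values were made by the authors' scanner software (Agilent Feature Extraction 9.5.3.1, annotation of mm9), which subtracted background from each spot, and these processed signals were used as deposited. The log2 matrix that the authors deposited held the log2 of the same signals without scaling between arrays, with 18.1% of its values blank. It served as an alternative after the 75th percentile of each array's values in it had been subtracted. Here each signal was divided by the 75th percentile of its array, probes of a gene name were averaged on the linear scale, and the log2 was taken. Differences were tested with limma 3.58.1 in R 4.3.3 on all 20 arrays with 5 group means and 15 residual degrees of freedom, and Benjamini-Hochberg adjustment covered all genes tested. A gene was tested where at least 3 of 4 arrays of either group were well above background and at most 1 value was missing. Single genes also had an exact two-sided permutation test. The fit was tested on simulated data. All 8 members were named, with listed pathway genes called, at least 2-fold changed and well above background on all 8 arrays, up to 3 per list and comparison (results of some listed genes are not reported here), and the genes nearest in profile. The members and lists were chosen with earlier results of these data known. Alternatives were background correction, normalization, probe summary, filters, the fold threshold, the compared arrays alone, the replicate block and leaving out arrays. A fat marker covariate and leaving aside each group's highest-Adipoq array were chosen later, with the data in view. The number of arrays limits the precision.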

Additional observations from a re-analysis of the deposited data

Results flagged for a closer look

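In 5 of 95 tests of a single array against the other 3 of its group, the gap to the nearest array exceeded Dixon's 95% critical value for 4 arrays, as a share of the group's range, where chance gives about 1 in 20. Among the members, Sqle was 2.69 in IPC+IRI replicate 2 and 3.12, 3.17 and 3.1 in the other arrays (log2 expression, gap of 0.856 of the range). Lss was -0.929 in IRI+Hemin replicate 4 and -1.74, -1.8 and -1.81 in the others (0.914). Of the pathway genes, Mylip was 0.474 in IRI+Hemin replicate 1 (0.857), Mbtps1 2.11 in Control replicate 2 (0.902) and Mbtps1 2.55 in IRI+Hemin replicate 4 (0.956).

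The difference made by ischemia was itself different with and without Hemin in 5 of 53 pathway genes tested by the interaction term of limma, close to the 7.77% of all genes, and in none of the 8 members. On the log2 scale the interaction was 0.941 for Acat2 (adjusted p = 0.0246), 0.665 for Hsd17b7 (adjusted p = 0.046), -0.76 for Lbr (adjusted p = 0.01), -0.564 for Nsdhl (adjusted p = 0.0485) and 1.24 for Mylip (adjusted p = 0.0195). These genes were picked after their values were seen.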

How the results depend on the processing

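Of the 24 calls of members in 6 comparisons, 9 were kept under all 21 alternatives other than the 2-fold threshold: Insig1 lower and Abca1 higher in Hemin vs Control and in IRI+Hemin vs IRI, Sqle higher in both IPC+IRI comparisons, Idi1 higher in IPC+IRI vs IRI, and Idi1 and Fdps lower in IRI+Hemin vs Hemin. The log2 difference of Insig1 in Hemin vs Control ranged from -1.35 to -0.668 and that of Abca1 from 0.7 to 1.43. The calls lost most often were Srebf2 in IPC+IRI vs IRI and Lss in IRI+Hemin vs Hemin (15 of 21 each), then Idi1 (11) and Fdps (10) in IRI vs Control, Idi1 in IPC+IRI vs Control (9) and Insig1 in IRI+Hemin vs Hemin (8). Fdps in IPC+IRI vs Control was the 1 called value that changed sign. The causes of the changes below were not tested, except that leaving out arrays leaves fewer samples.

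Members called (higher or lower) changed as follows. With normexp background correction, IRI vs Control had 0 higher and 0 lower, IRI+Hemin vs IRI 2 higher and IRI+Hemin vs Hemin 0 higher. With no normalization between arrays, IRI vs Control had 0 lower, IPC+IRI vs Control 5 higher, IRI+Hemin vs IRI 2 higher, Hemin vs Control 3 higher and IRI+Hemin vs Hemin 0 higher. Quantile normalization and scaling over probes well above background on all arrays each gave 1 lower in IPC+IRI vs Control and 5 lower in IRI+Hemin vs IRI. With the mean of log2 over probes, IRI vs Control had 0 higher, IPC+IRI vs Control 1 lower, IPC+IRI vs IRI 3 higher and 1 lower, Hemin vs Control 2 lower and IRI+Hemin vs Hemin 0 higher. With the deposited log2 matrix, IRI vs Control had 0 higher, IRI+Hemin vs IRI 3 higher and IRI+Hemin vs Hemin 0 higher. At a 2-fold threshold, IRI vs Control had 0 higher and 0 lower, IPC+IRI vs Control 0 higher, IPC+IRI vs IRI 2 higher, IRI+Hemin vs IRI 1 lower, Hemin vs Control 0 higher and IRI+Hemin vs Hemin 0 higher and 2 lower. With the compared arrays alone, IPC+IRI vs Control had 1 lower and IRI+Hemin vs Hemin 0 higher. Of the alternatives chosen after seeing the data, the fat marker covariate gave 1 lower in IPC+IRI vs Control (Abca1), and leaving aside the highest-Adipoq arrays gave 0 higher and 1 lower in IRI vs Control and 0 higher in IRI+Hemin vs Hemin.

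When each array was left out in turn, IRI vs Control had between 1 and 1 higher and between 1 and 4 lower members, and the others had 1 to 3 higher in IPC+IRI vs Control, 4 to 5 higher in IPC+IRI vs IRI, 1 to 2 higher and 3 to 5 lower in IRI+Hemin vs IRI, 0 to 1 higher and 3 to 5 lower in IRI+Hemin vs Hemin, and 0 to 1 lower in the interaction.

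Values of members that were not called, with Fdps in IPC+IRI vs Control as the exception, changed sign to the following log2 differences. With normexp, Lss was -0.0164 in IPC+IRI vs Control, -0.168 in IRI+Hemin vs IRI, -0.0649 in Hemin vs Control and -0.103 in the interaction, and Abca1 was 0.102 in IRI+Hemin vs Hemin. With no normalization, which took the median log2 difference of all genes in Hemin vs Control from 0.057 to 0.62, Sqle was 0.0186 and Srebf2 0.0167 in IRI vs Control, Abca1 0.00222 in IPC+IRI vs Control, Hmgcs1 0.0479 and Insig1 0.0861 in IPC+IRI vs IRI, Srebf2 0.0876 in IRI+Hemin vs IRI, Hmgcs1 0.36, Idi1 0.384, Fdps 0.448 and Srebf2 0.48 in Hemin vs Control, and Lss -0.0583 in the interaction. With quantile normalization, Sqle was -0.0083 in Hemin vs Control. With scaling over probes well above background, Lss was -0.0539 in IPC+IRI vs Control and -0.0964 in Hemin vs Control, and Insig1 0.0247 in the interaction. With the mean of log2 over probes, Srebf2 was 0.332 in IRI vs Control, Fdps -0.0149 in IPC+IRI vs Control and Insig1 0.0174 in the interaction. With the deposited matrix, Hmgcs1 was 0.601 in IRI vs Control and 0.744 in Hemin vs Control, Lss -0.0139 and Srebf2 -0.469 in IPC+IRI vs Control, Insig1 0.193 in IPC+IRI vs IRI, Srebf2 0.466 in IRI+Hemin vs IRI and 0.82 in IRI+Hemin vs Hemin, and in the interaction Insig1 was 0.147 and Srebf2 1.76. With the highest-Adipoq arrays aside, Sqle was 0.0457 in IRI vs Control and Fdps 0.0734 in Hemin vs Control. With single arrays left out, the values in Hemin vs Control ranged from -0.0332 to 0.108 for Lss, -0.271 to 0.0812 for Fdps and -0.331 to 0.0447 for Idi1, those in the interaction from -0.193 to 0.0571 for Insig1 and -0.0706 to 0.235 for Lss, and those of Lss in IRI+Hemin vs IRI from -0.0513 to 0.255, of Sqle in IRI+Hemin vs Hemin from -0.00462 to 0.235 and of Lss in IPC+IRI vs Control from -0.015 to 0.147.

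The labels give each group the same replicate numbers, but the numbers do not pair the samples: deviations of same-numbered arrays correlated at -0.379 to 0.21 (median -0.0311, 7 of 40 pairs above 0.1), and 3 of 20 arrays correlated best with their own number. With the replicate number as a block, IRI vs Control had 1 higher and 4 lower members, as without it, IPC+IRI vs IRI had 4 higher and IRI+Hemin vs IRI 4 lower. Slide as a random block could not be fitted, since each group had its own slide, and was not run.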
